A study of Oryza sativa with 6 samples.

Results

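Tonoplast intrinsic proteins (TIPs) are aquaporins of the vacuolar membrane, and their transcripts were followed in detached rice leaves kept in the dark with and without cytokinin. Of 10 TIP genes looked for by name, TIP1-1 to TIP5-1, 8 were read from the arrays, out of 17905 genes that have a probe set of their own. A probe set is a group of short probes on the array that report one transcript. Those 8 genes had 11 probe sets listed with 1 gene, and where a gene had several, the brightest over the 6 arrays stood for it. TIP5-1 is named in the rice reference but had no such probe set, and TIP4-3 was found under no name there, so neither was analysed here. The probe set that lists TIP3-1 together with another gene was left out.

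The BA group was 3 arrays of leaves of the drought- and heat-tolerant cultivar Nagina22 (N22) floated in a solution with 2 mg/ml of the synthetic cytokinin 6-benzyl adenine (BA). The untreated group was 3 arrays of N22 leaves in the same NaOH and Tween 20 solution lacking BA. Both groups used the third leaf of plants 30 days old, carried no mutation or transgene that the labels name, and spent 72 h in darkness by the extraction protocol, although the treatment label of all 6 samples gives 2 h. By the protocol, both groups thus had the dark treatment that sets off dark-induced senescence (DIS), the ageing of a cut leaf in darkness. The paper reports that BA delayed this senescence, with treated leaves staying green while untreated leaves yellowed. The groups are therefore not taken to be at the same stage of senescence. The part of that stage in the TIP results was not tested. There was no array from before the dark, so BA-treated and untreated leaves can be compared with each other but not with fresh leaves. A detached leaf in solution no longer takes up water through roots, which limits it as a model for water channels. A lower signal could stem from fewer cells of a type or from less RNA per cell, and bulk leaf RNA cannot tell these apart.

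Aquaporins are channels that let water, and in some members small neutral solutes such as urea, ammonia or hydrogen peroxide, pass a membrane along its gradient. The TIP branch sits mainly in the tonoplast, the membrane around the vacuole, where it allows fast water exchange between the cytoplasm and the large central store of the plant cell. In plants the TIP1 and TIP2 groups are known from vegetative tissues, TIP3 from the storage vacuoles of seeds and TIP5, in Arabidopsis, from pollen. Rice TIP2-1 is known chiefly from roots.

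Signals were the authors' deposited probe set values on a linear scale, whose lowest value was 16 on every array and whose median lay between 22.5 and 23.3. They were compared as log2(signal + 1) with limma, a linear model that shares information on spread between probe sets, over 57258 rice probe sets. A log2 change is BA-treated minus untreated, and it understates the change of a gene near the lowest value. Of 15 leaf genes listed, 4 could be matched to a probe set of their own, and all 4 had mean signals over 32. Their sums were 1592 to 2439 on BA arrays and 1128 to 2578 on untreated arrays. At an unadjusted p under 0.05 in limma, 3 of the 4 were higher with BA (4.24% of all probe sets). These were petC, of the photosynthetic electron chain (log2 change 1.07), RBCS1, a Rubisco small subunit gene (0.79), and RCA, which encodes Rubisco activase (0.79). CAB2R, a gene of a chlorophyll-binding protein, read 762, 1585 and 1304 with BA and 1928, 2126 and 582 without it, a log2 change of -0.20 with overlapping groups. Of 7 seed genes, 6 averaged under 32 (sums of 199 to 208 with BA and 184 to 198 without it), as did 2 of 3 root genes and all 3 anther genes. The summed root signal ran between 150 and 181 on BA arrays and between 121 and 226 on untreated arrays, and the summed anther signal between 69.3 and 73.9 on BA arrays and between 65.0 and 78.7 on untreated arrays. The arrays of BA replicates 2 and 3 were alike, with an SD of 0.16 between their log2 signals, where every other pair of arrays gave 0.416 to 0.615. The 28S rRNA control had log2 signals of 4.88 to 5.18 with BA and of 5.59, 5.43 and 8.44 without it, the last on untreated replicate 3. The GAPDH 3′ minus 5′ signal was higher with BA by 0.24 and the mean of 12 poly-A control probe sets lower, at a log2 change of -1.06 (exact permutation test, two-sided, p = 0.1 for both, and no smaller p can arise from 3 against 3). The part of these differences in the TIP results was not tested.

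No TIP gene passed an adjusted p of 0.05 in limma, against 0.159% of all rice probe sets. TIP2-2 had the largest difference, with a signal 0.333 times as high in BA-treated as in untreated leaves on the log scale. TIP1-2 was the only gene of the 8 whose BA-treated and untreated arrays did not overlap, a pattern seen in 14.0% of all probe sets. At an unadjusted p under 0.05, 1 of the 8, TIP2-2, was lower with BA (4.25% of all probe sets) and 0 were higher (4.24%). With a fold over 1.5 added, the study's threshold, the count was again 1 lower (2.16% of all probe sets) and 0 higher (1.73%). The log2 change was below 0 for 6 of the 8 genes and for 51.0% of all probe sets. The median over the 8 genes was -0.20, beside -0.0035 for all probe sets.

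**Figure D1:**
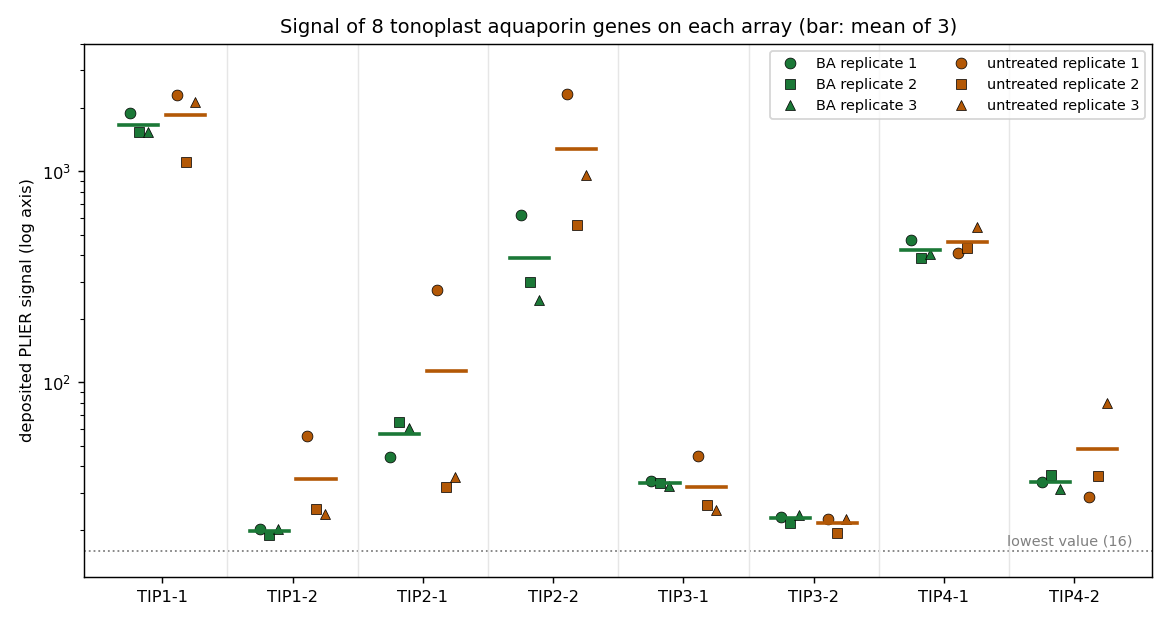
Deposited signal (log axis) of the 8 TIP genes on each of the 6 arrays, with BA arrays in green on the left of each gene, untreated arrays in orange on the right, and a bar at the mean of 3. Untreated replicate 1 (orange circle) stands highest for TIP1-1, TIP1-2, TIP2-1, TIP2-2 and TIP3-1, and BA arrays lie below all untreated arrays only for TIP1-2. Signals of different genes come from different probes, so heights are comparable within a gene only.

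Untreated replicate 1 was often the brightest array for these genes. It gave the highest of the 6 signals for 5 of the 8 genes (TIP1-1, TIP1-2, TIP2-1, TIP2-2 and TIP3-1), whereas it was the highest array for 15.7% of all probe sets. It was also the highest for 4 of 11 tonoplast transporters, 3 of 7 other intrinsic proteins (NIPs and SIPs) and 2 of 10 plasma membrane aquaporins, and no difference between these groups was tested. Of the other 3 genes, TIP4-1 and TIP4-2 were highest on untreated replicate 3 (24.9% of all probe sets) and TIP3-2 on BA replicate 3 (13.9%). The dimmer probe set of TIP4-1 was highest on untreated replicate 1, at 45.0. The untreated arrays were also more spread than the BA arrays for all 8 genes (SD of log2 signal), against 61.0% of all probe sets. All these shares are descriptions. Without untreated replicate 1 the median change over the 8 genes was -0.05, beside -0.0133 for all probe sets.

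TIP1-1, a major vacuolar water channel of vegetative tissue, was strongly detected in both groups. Its signal (gene 4331608) was 1876, 1532 and 1538 on the BA arrays and 2294, 1104 and 2123 on the untreated arrays. The BA values lay inside the range of the untreated ones. The log2 change was -0.09 (standard error 0.29, 95% interval -0.81 to 0.62, adjusted p = 0.97 from limma). The other probe set of the gene, of the class _x_at, read 1449, 1003 and 856 with BA and 2282, 743 and 1324 without it, again with overlapping groups and a log2 change of -0.28. The sign was not stable, since the log2 change of the brighter probe set was 0.10 without untreated replicate 1 and 0.04 without untreated replicate 3. Without untreated replicate 2 it was -0.43 (unadjusted p = 0.021, adjusted p = 0.40 from limma). The interval of the comparison over all arrays holds both lower and higher levels with BA.

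TIP1-2, the other member of the TIP1 group, was dim in every BA-treated leaf sample. Its signal (gene 4324303) was 20.2, 19.0 and 20.3 with BA and 56.0, 25.2 and 23.7 without it. All 3 BA arrays lay below all 3 untreated arrays, but both groups come close to the lowest value of 16, and untreated replicate 1 read 2.22 times the next untreated array. The log2 change was -0.68 (standard error 0.33, 95% interval -1.47 to 0.12, unadjusted p = 0.083, adjusted p = 0.69 from limma). Without untreated replicate 1 it was -0.29 (unadjusted p = 0.018, adjusted p = 0.41 from limma), and the remaining untreated arrays, at 25.2 and 23.7, were close to each other.

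TIP2-2 showed the largest difference of the family. TIP2 proteins are known in plants for carrying ammonia as well as water. The signal of TIP2-2 (gene 4340941) was 623, 299 and 245 on the BA arrays and 2326, 559 and 954 on the untreated arrays. The groups touched at one point only, since BA replicate 1 at 623 exceeded untreated replicate 2 at 559. The means were 389 ± 204 with BA and 1280 ± 927 without it (SD, n = 3 each). On the log2 scale the change was -1.59 (standard error 0.60, 95% interval -3.05 to -0.12, unadjusted p = 0.038, adjusted p = 0.54 from limma). The 15 alternatives that gave a value for TIP2-2 kept the direction, at log2 changes between -2.06 and -1.03 and limma adjusted p between 0.16 and 1.0. The alternative without probe sets open to cross-hybridization gave none. The unadjusted p was above 0.05 when any of 4 arrays was left out: 0.085 without untreated replicate 1, where the change was smallest at -1.03, 0.071 without untreated replicate 3, 0.10 without BA replicate 2 and 0.12 without BA replicate 3. The only probe set of the gene is of the class _x_at, whose probes can also bind related transcripts, so its signal may hold RNA of other genes. TIP1-1, TIP2-1, TIP3-1 and TIP4-2 were also read from probe sets of a class open to such binding.

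TIP2-1, which shares its group with TIP2-2, was set apart by a single array. Its signal (gene 4330207) was 44.2, 65.1 and 61.0 with BA and 273, 32.1 and 35.6 without it. Untreated replicate 1 was 7.68 times the next untreated array, the widest such gap among the 8 genes, and the other untreated arrays lay below all BA arrays. The second probe set repeated this order at 35.3, 35.0 and 30.6 with BA and 117, 23.6 and 26.6 without it. The log2 change over all arrays was -0.28 (standard error 0.83, 95% interval -2.31 to 1.75, adjusted p = 0.97 from limma). Without untreated replicate 1 it was 0.71, a turn in direction (unadjusted p = 0.014, adjusted p = 0.37 from limma). On untreated replicates 1, 2 and 3 the summed signal of the root genes was 164, 226 and 121. Most of it came from 1 gene, PHT1-11, at 119, 180 and 78.1, and the others lay near the lowest value, so the sum says little about root transcripts. Why that array reads high for TIP2-1 was not tested.

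**Figure D2:**
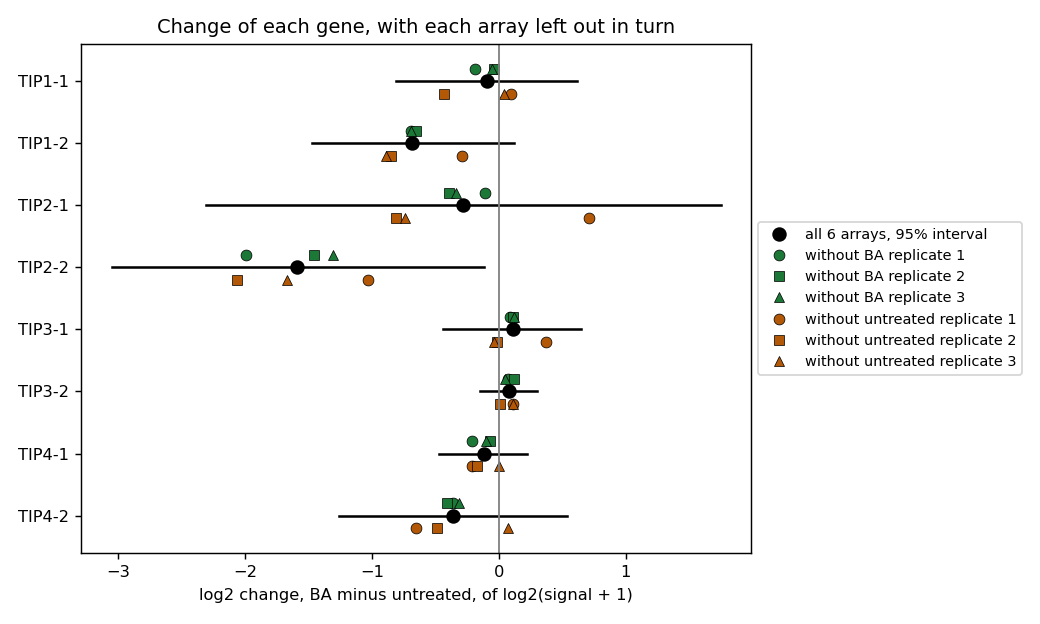
Log2 change of each gene (BA minus untreated) over all 6 arrays with its 95% interval (black), and with each array left out in turn: BA arrays in green above, untreated arrays in orange below. TIP2-2 stays below 0 throughout, at -2.06 to -1.03, while TIP2-1 moves to 0.71 without untreated replicate 1.

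TIP3-1 and TIP3-2, the seed-type members, had low signals on all arrays. The TIP3-1 signal (gene 4348981) was 34.1, 33.3 and 32.5 with BA and 44.7, 26.2 and 25.0 without it. The BA arrays lay between untreated replicate 1 and the other untreated arrays, and the log2 change was 0.11 (95% interval -0.44 to 0.65, adjusted p = 0.95 from limma). Without untreated replicate 1 all BA arrays lay above the untreated ones, at a log2 change of 0.37 (unadjusted p = 0.0058, adjusted p = 0.27 from limma). TIP3-2 (gene 4336464) read 23.1, 21.5 and 23.6 with BA and 22.6, 19.4 and 22.6 without it. Its groups overlapped, and its log2 change of 0.08 (95% interval -0.15 to 0.30) was the smallest in size of the 8. Values so close to the lowest on the array do not show whether TIP3-2 was expressed in either group.

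TIP4-1, of a TIP group less studied in rice than TIP1 and TIP2, was detected on every array at a steady level. Its signal (gene 4338163) was 473, 387 and 407 with BA and 409, 432 and 546 without it, with overlapping groups. The log2 change was -0.12 (standard error 0.14, 95% interval -0.47 to 0.22, adjusted p = 0.90 from limma), so a change of over 1.5-fold either way lay outside the interval. The second probe set of the gene read between 27.1 and 39.7 with BA and between 27.7 and 45.0 without it, at a log2 change of -0.05. TIP4-2 (gene 4324277) was dim, at 33.7, 36.4 and 31.2 with BA and 28.7, 36.0 and 79.7 without it. Only untreated replicate 3 stood apart. It is also the array with the high 28S rRNA signal, and the highest array for 24.9% of all probe sets. The part of either in the TIP4-2 value was not tested. The log2 change of TIP4-2 was -0.36 over all arrays (95% interval -1.26 to 0.54, adjusted p = 0.90 from limma) and 0.07 without that array.

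To ask whether TIP genes moved differently from each other, the log2 difference between genes was taken within each array for the 4 genes with a mean signal above 64 over all arrays (TIP1-1, TIP2-1, TIP2-2 and TIP4-1), which gives 6 pairs. TIP2-1 passed that limit only through untreated replicate 1, at 273, and its BA arrays averaged 56.8. Its 3 pairs are therefore given as values without a p. They still count in the adjustment over the 6 pairs, so the adjusted p of the other pairs depends on them. TIP1-1 minus TIP2-2 was 1.59, 2.35 and 2.65 on the BA arrays and -0.02, 0.98 and 1.15 on the untreated arrays. These values did not overlap, so TIP2-2 was lower relative to TIP1-1 in every BA-treated sample. The change was 1.49 (exact permutation test, two-sided, p = 0.1, the smallest possible here, and 0.4 after Benjamini-Hochberg adjustment over the 6 pairs). It was 1.13 without untreated replicate 1. Groups that do not overlap cannot come to overlap when an array is left out, so only the size of the change is given there. TIP2-2 minus TIP4-1 had a change of -1.46 with overlapping groups (exact permutation p = 0.2, adjusted p = 0.4), and of -0.82 without untreated replicate 1. TIP1-1 minus TIP4-1 was 1.96 ± 0.04 with BA and 1.93 ± 0.57 without it (SD, n = 3 each), a change of 0.03 (p = 0.8 in the exact permutation test), and of 0.31 without untreated replicate 1. The pairs with TIP2-1 depended on that array: the change was 0.19 for TIP1-1 minus TIP2-1, 1.31 for TIP2-1 minus TIP2-2 and -0.15 for TIP2-1 minus TIP4-1 over all arrays. Without untreated replicate 1 these were -0.61, 1.74 and 0.92.

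**Figure D3:**
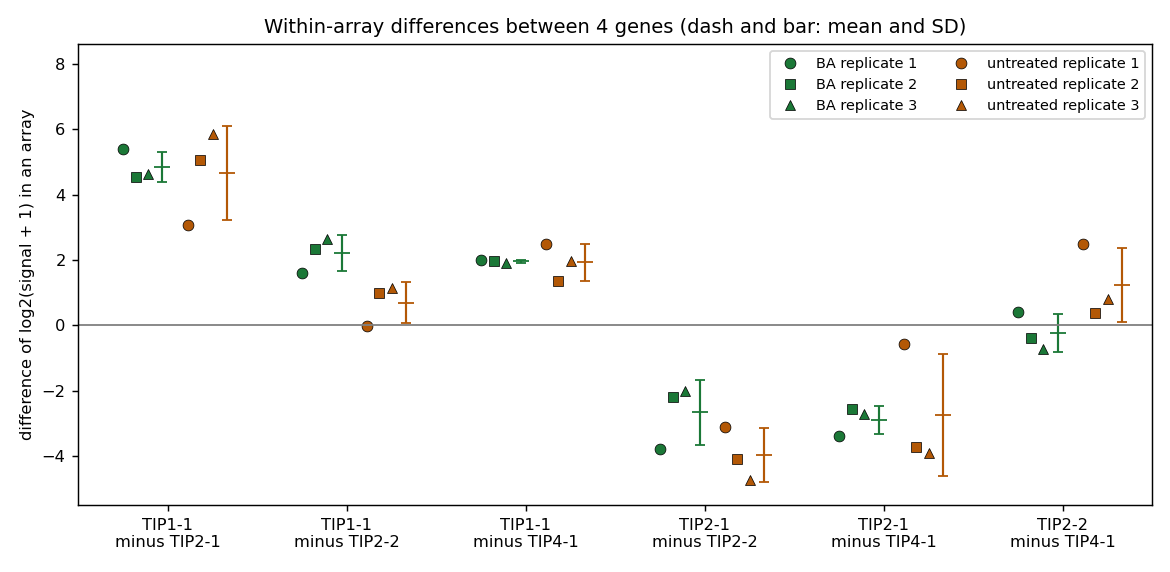
Difference of log2(signal + 1) between 2 genes on the same array, for the 6 pairs of the 4 genes with a mean signal above 64, with mean and SD of 3 arrays (green, BA; orange, untreated). TIP1-1 minus TIP2-2 is the only pair without overlap, at 1.59 to 2.65 with BA and -0.02 to 1.15 without it. TIP2-1 is shown because its mean passed 64 through untreated replicate 1 alone.

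Among 1494 named genes with a mean signal above 64, those whose log2 signals ran most nearly parallel to TIP2-2 over the 6 arrays were COA20 (Pearson r = 0.988), DOF4 (0.987), of the Dof transcription factors, and RF2b (0.970), a bZIP transcription factor. For TIP1-1, the brightest probe set of the family, they were EREBP-1 (0.983), the ribosomal protein gene CL18 (0.982) and RPA14 (0.978). These are the highest of many correlations over only 6 arrays, of which 2 are close, and are given as a description of likeness.

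Other aquaporins of the same leaves were read by the same rule. Plasma membrane intrinsic proteins (PIPs), which admit water at the cell surface, were below 0 for 9 of 10 genes, with a median log2 change of -0.70. None was called after adjustment (0.159% of all probe sets). At an unadjusted p under 0.05, 4 of the 10 were lower (4.25% of all probe sets) and 1 higher (4.24%), and 5 did not overlap (14.0%). PIP2-6 read 41.9, 27.5 and 29.3 with BA and 331, 260 and 695 without it, all BA arrays lying lower by a wide margin (log2 change -3.56, limma adjusted p = 0.052). PIP1-1 had a change of -1.37 (adjusted p = 0.14) and PIP2-7 one of 1.11 (adjusted p = 0.45). The changes of TIP2-2 and of these PIPs come from the same arrays, and the difference between the families was not tested. The NOD26-like and small basic intrinsic proteins (NIPs and SIPs), which include channels for silicon and other small solutes, had a median of -0.07 over 7 genes. NIP1-1 alone was lower at an unadjusted p under 0.05 (4.25% of all probe sets), and none was higher. The log2 change was -0.43 for NIP1-1 (adjusted p = 0.55 from limma), while NIP2-2 (Lsi6, a silicon channel) had -0.86 (adjusted p = 0.65) and SIP1-1 had 0.31 (adjusted p = 0.88).

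Transporters known or listed for the tonoplast, which share the membrane with TIPs, had a median log2 change of -0.17 over 11 genes, with 2 lower (4.25% of all probe sets) and 1 higher (4.24%) at an unadjusted p under 0.05 and none called after adjustment (0.159%). VIT2, a vacuolar iron transporter, read 27.2, 24.0 and 23.6 with BA and 179, 72.3 and 204 without it, so all BA arrays lay lower (log2 change -2.43, adjusted p = 0.13 from limma). The vacuolar potassium channel gene TPKA read 64.2, 71.7 and 71.7 with BA and 80.8, 97.1 and 84.7 without it, also with all BA arrays lower (log2 change -0.33, adjusted p = 0.41). Upward, the log2 change was 0.54 for CAX2, of the exchangers of calcium for protons (adjusted p = 0.55, no overlap), and 0.11 for the zinc transporter gene MTP1 (adjusted p = 0.94, with overlap). The proton pump subunit gene VATP-P1 had -0.25 (adjusted p = 0.72) and the vacuolar processing enzyme gene VPE1 had 0.26 (adjusted p = 0.82), both with overlapping groups. The lists of proton pumps and of vacuolar enzymes each held only 1 matched gene on the array.

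**Figure D4:**
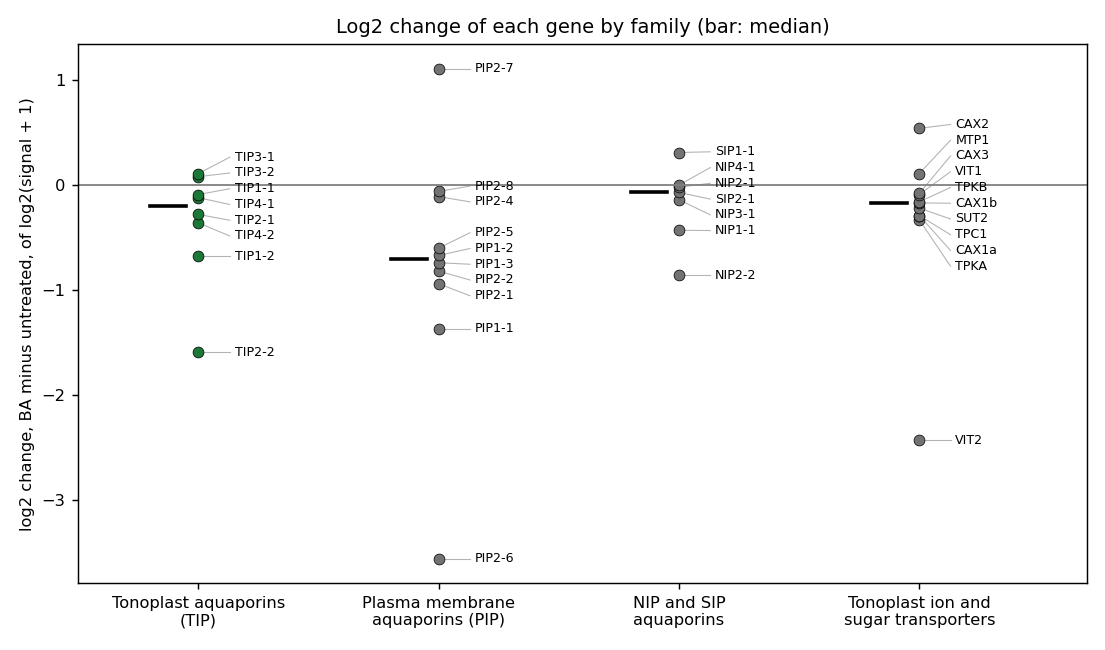
Log2 change (BA minus untreated) of each gene, as points with names, and the median of each family as a bar: 8 TIPs, 10 PIPs, 7 NIPs and SIPs and 11 tonoplast transporters. The medians are -0.20, -0.70, -0.07 and -0.17, and TIP2-2 is the only TIP below -1.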

How the data were processed

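RNA of detached N22 leaves was hybridised to 6 Affymetrix rice arrays, 3 with BA and 3 without. The deposited values are linear intensities, 1 for each probe set in each array, which the authors summarised with PLIER and a variance stabilization. The sources used here do not give the scaling between arrays or software versions. The submitters' processing notes also name RMA. Of 57381 probe sets, 123 controls were left out, and the annotation gave 1 gene to 22436 of all, several genes to 95 and no gene to 34850. Gene names came from the platform annotation, joined by gene identifier to the assembly ASM3414082v1, and no file used here held sequences. Signals entered as log2(signal + 1) with no further normalization, and lmFit and eBayes of limma 3.58.1 (R 4.3.3), with Benjamini-Hochberg adjustment over 57258 probe sets, gave every adjusted p. The paper states biological replicates. Members and lists were chosen with earlier results of these data known.

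All 8 measured members are named, and from each aquaporin and vacuole list up to 2 further genes per direction with the smallest p. The 4 leaf genes lie outside that rule and were named after their values were seen. The genes named as most like TIP2-2 and TIP1-1 are the 3 with the highest Pearson r. The fit was tested on simulated data. Classes _a_at, _s_at and _x_at mark probe sets open to cross-hybridization, and 5 of the 8 measured members were read from such a probe set. Alternatives covered normalization, log offset, spread estimate, array weights, filters, the probe set rule, the replicate block, each array left out, and BA replicates 2 and 3 averaged. Precision is limited by the number of arrays.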

Additional observations from a re-analysis of the deposited data

How the results depend on the processing

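The count of TIP genes with an adjusted p under 0.05 was 0 under all 16 alternatives. The smallest was 0.16 (TIP2-2, replicate number as a block). No probe set passed with that block, without BA replicate 2 or 3, or with both averaged (91 as reported), so 0 was forced there. The count at an unadjusted p under 0.05 was 1 (TIP2-2). It was 2 with array weights and 2 with eBayes trend (TIP1-2 and TIP2-2, both lower), 0 with BA replicates 2 and 3 averaged and 0 without probe sets open to cross-hybridization, which leaves 4 genes and drops TIP2-2. With 1 array left out it ran between 0 and 3, at 0 without BA replicate 2 or 3. Without untreated replicate 1 it was 3 (5074), TIP1-2 lower, TIP2-1 and TIP3-1 higher, but not TIP2-2. Without untreated replicate 2 it was 2 (5201), TIP1-1 and TIP2-2, both lower, and without untreated replicate 3 it was 1, TIP1-2 (5832). Of the 6 pairs of genes, 1 did not overlap, against 2 with quantile normalization and 2 when probe sets of 1 gene were averaged. With an array left out the count ran between 1 and 3, at 3 without untreated replicate 1 or BA replicate 1. These counts include pairs with TIP2-1. Leaving out an array can only keep or add pairs without overlap, so higher counts there show no firmer result. Direction held in 116 of 123 combinations of gene and alternative. This count flatters the result, since eBayes trend, the block and the filters do not alter a probe set's log2 change. Direction turned only where an untreated array was left out. With 1 array left out it turned for TIP1-1 (range -0.43 to 0.10, and 0.04 without untreated replicate 3), TIP2-1 (-0.81 to 0.71), TIP3-1 (-0.04 to 0.37, and -0.01 without untreated replicate 2), TIP4-1 (-0.21 to 0.00) and TIP4-2 (-0.65 to 0.07). The values 0.10 and 0.71 came without untreated replicate 1, and -0.04, 0.00 and 0.07 without untreated replicate 3. The cause was not tested. The median over the genes ran between -0.46 and -0.02 with an array left out. Same-numbered arrays did not deviate together in every pair (r = 0.422, -0.0133 and 0.423 for numbers 1, 2 and 3). Differently numbered arrays gave r between -0.403 and 0.271, below the values of numbers 1 and 3. As number 2 showed no such likeness, the numbers were not taken to pair samples. With the replicate block the unadjusted p of TIP2-2 was 0.0024 from limma. Spread, weight, block and filter settings do not enter the test of pairs, and without probe sets open to cross-hybridization only TIP2-1 and TIP4-1 of its genes would be left, so it was not run. If BA replicates 2 and 3 are not independent, the p-values are too small.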
